A study of Homo sapiens with 12 samples.

Results

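H211, an established human small cell lung cancer line carrying genes of tuft cells, was sampled with and without inhibition of the histone demethylase LSD1. The comparison takes the 6 H211 libraries of a series of 12: 3 from cultures given the LSD1 inhibitor ORY-1001 at 1 µM and 3 from cultures given vehicle, which the sample labels name as PBS. Both groups are labelled wild type and grew in RPMI medium with serum. Treatment lasted 7 days by the sample labels but 10 days by the protocol text, and which applied was not settled here. The other 6 libraries come from H82, a second small cell lung cancer line with the same 2 treatments. They show where H211 differs, and they also enter the gene filter and the estimate of each gene's spread. The genes are all those at 1 or more in at least 3 of the 12 libraries, 15456 of the 56508 symbols in the table.

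Small cell lung cancer is usually neuroendocrine, but some tumours carry the program of tuft cells, chemosensory epithelial cells run by the factor POU2F3. Tuft cells taste their surroundings through G-protein-coupled receptors and the cation channel TRPM5, and answer with acetylcholine, prostaglandins, leukotrienes and cytokines. LSD1, encoded by KDM1A, removes methyl groups from lysine 4 of histone H3 and works with the CoREST corepressor, to which SNAG-domain factors such as GFI1, GFI1B and SNAI1 can bring it.

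Most markers matched the label of the line, but not all. Among the markers of tuft-like cells, POU2F3 was at 285, 281 and 277 in the controls, its coactivator gene C11orf53 at 319, 325 and 326, ASCL2 at 178, 177 and 174 and the actin-bundling protein AVIL at 663, 653 and 661. The neuroendocrine factor NEUROD1 was at 1.4, 2.1 and 1.56 in the same libraries and the granule protein CHGA was at 0.966, 1.12 and 2.75. INSM1, another neuroendocrine marker, was higher there, at 6.47, 6.1 and 9.56. The tuft-cell marker CHAT went against the label, at 6.03, 6.85 and 6.36 in H211 controls and 15.45, 14.09 and 15.23 in H82 controls. With the drug CHAT was at 1.57, 1.6 and 1.43 in H211. KDM1A was read at similar levels in all 6, 182, 184 and 187 in the controls and 184, 188 and 193 with the drug; an inhibitor of the enzyme need not alter its RNA, so this does not check the treatment. Levels are the deposited TPM, a level per transcript length that appears rescaled between libraries, the depth behind them is unknown, and H211 columns summed to 967415 to 1039665. No label says that replicates came from separate cultures, so each p-value reflects the spread of the 12 libraries alone, possibly a technical one. In bulk RNA, fewer cells of a type and less RNA per cell cannot be told apart. A gene is called when its adjusted p is under 0.05 in a limma fit over all 12 libraries. The fit is on log2(level + 1), with Benjamini-Hochberg adjustment over all tested genes. Folds are ratios of group means, errors beside means are SD over 3 libraries, and SE belongs to the log2 fold change, which understates the change of genes at low levels. A mean written from one value to another always runs from control to ORY-1001.

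The promoters of 5 named genes, each of which holds the motif it illustrates, are shown first. Other named genes with a window do not hold the motif there. The windows of FOS and JUN, for instance, held no CArG box. All windows are RefSeq sequences on GRCh38.p14, running from 250 bases before to 50 bases after the annotated start, and capitals mark the motif named. Sites further from the start were not searched, so a gene without a match may hold the motif elsewhere. On the fitted log2(level + 1) scale EGR1 had the largest rise among called genes outside antigen presentation, and its capitals mark 2 CArG boxes (2 C, 6 A or T, 2 G), the site of serum response factor, which begin 105 and 83 bases before the start, at positions -105 and -83. IFITM3 and LGALS3BP stand for the interferon-stimulated genes that rose, and their capitals mark the core of the interferon-stimulated response element, GAAA and again GAAA with any 2 bases between, at -52 and -35 in IFITM3 and at -58 in LGALS3BP. ALDH1A1 and RGS13 are 2 of the genes that fell in this line. Their capitals mark ATGCAAA or its reverse complement, the first 7 letters of the octamer read by POU factors, at -58 and -36. The windows of SPIB and ANXA1, which also fell, held no ATGCAAA.
EGR1 (chr5:138465229-138465528, plus strand): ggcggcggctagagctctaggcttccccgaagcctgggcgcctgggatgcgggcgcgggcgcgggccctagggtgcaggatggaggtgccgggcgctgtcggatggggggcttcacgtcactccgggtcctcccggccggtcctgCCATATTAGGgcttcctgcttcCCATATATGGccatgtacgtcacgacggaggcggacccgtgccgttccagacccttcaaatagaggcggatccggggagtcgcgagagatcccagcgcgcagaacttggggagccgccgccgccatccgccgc
IFITM3 (chr11:320811-321110, minus strand): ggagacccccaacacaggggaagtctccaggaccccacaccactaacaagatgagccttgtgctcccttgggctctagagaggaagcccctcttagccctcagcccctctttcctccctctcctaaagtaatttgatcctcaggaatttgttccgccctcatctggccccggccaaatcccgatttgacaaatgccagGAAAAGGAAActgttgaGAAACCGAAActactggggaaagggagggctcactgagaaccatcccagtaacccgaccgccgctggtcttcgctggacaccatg
LGALS3BP (chr17:78979874-78980173, minus strand): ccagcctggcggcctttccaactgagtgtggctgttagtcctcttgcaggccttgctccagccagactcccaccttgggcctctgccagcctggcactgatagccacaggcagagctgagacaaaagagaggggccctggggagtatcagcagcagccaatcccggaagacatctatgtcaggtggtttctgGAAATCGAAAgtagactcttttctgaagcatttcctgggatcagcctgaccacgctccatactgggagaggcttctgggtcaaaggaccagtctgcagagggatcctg
ALDH1A1 (chr9:72953004-72953303, minus strand): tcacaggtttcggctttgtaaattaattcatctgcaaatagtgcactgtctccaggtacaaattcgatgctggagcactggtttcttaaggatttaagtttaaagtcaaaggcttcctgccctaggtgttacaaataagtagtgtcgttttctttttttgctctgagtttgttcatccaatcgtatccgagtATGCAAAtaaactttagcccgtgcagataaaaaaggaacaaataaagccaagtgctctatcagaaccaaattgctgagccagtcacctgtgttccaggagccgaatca
RGS13 (chr1:192635897-192636196, plus strand): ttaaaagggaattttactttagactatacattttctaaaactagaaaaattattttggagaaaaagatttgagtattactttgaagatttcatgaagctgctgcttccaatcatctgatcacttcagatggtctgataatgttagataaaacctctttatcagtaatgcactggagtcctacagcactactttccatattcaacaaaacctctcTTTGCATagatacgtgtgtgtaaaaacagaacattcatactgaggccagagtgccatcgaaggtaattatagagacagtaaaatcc

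The 6 motifs were searched on both strands, and a match is a description, not a site. The promoter table held a window for 7923 of the 15456 tested genes, 70 of the 140 called at least 2-fold higher and 45 of the 91 called at least 2-fold lower. The response element core occurred in 2.68% of all windows, in 21.4% of those of the genes at least 2-fold higher, and in 4.44% of those at least 2-fold lower. Of 19 interferon-stimulated effectors that were called higher and had a window, 14 held it (73.7%), about the share of all tested members of that list, 21 of 28 (75%). ATGCAAA occurred in 2.81% of all windows, in 5.71% of those of the genes at least 2-fold higher and in 13.3%, or 6 of 45, of those at least 2-fold lower. Among tested tuft-cell effectors with a window, 4 of 13 held it (30.8%). It was in 2 of the 7 of them called lower (28.6%) and in the 1 called higher, so within that list it did not mark the fall. A CArG box was in 0.858% of all windows and in 2 of the 70. Of 11 immediate early genes that were called higher and had a window, 1 held it within that window. The other 3 motifs were AATCA, the core read by GFI factors (25.2% of all windows, 37.1% of those of genes at least 2-fold higher, 22.2% of those at least 2-fold lower), TGANTCA of AP-1 (4.03%, 2.86% and 8.89%) and GTGGGCG of EGR factors (15.7%, 8.57% and 8.89%). Matches of different motifs may overlap, and AATCA lies inside TGANTCA where its N is A.

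With ORY-1001, 2868 of 15456 genes were called in H211 (18.6%), 1383 higher (8.95%) and 1485 lower (9.61%). Counts of list members given below are to be read beside these shares. At least 2-fold on the fitted scale were 140 higher (0.906%) and 91 lower (0.589%), so most called genes moved little. In 5469 genes (35.4%) the 3 treated and the 3 control libraries did not overlap. The median log2 fold change over all tested genes was -0.0021. Mitochondrial genes held 8.74% to 13.46% of the signal in the H211 libraries. With totals taken without them, 961 genes were called higher and 2016 lower, and the median was -0.051, so the near-even balance depends on the scaling. Libraries of a group correlated across genes at r = 0.9885 to 0.9912 and treated with control libraries at 0.9799 to 0.9819; genes are not independent replicates. Of the 12 libraries, only the 3 treated H211 libraries held 55 tested genes at 1 or more, 48 of them called. Only the 3 H211 controls held another 40, 34 of them called. These genes passed the filter through the group where they are high, so their called counts follow largely from that choice. Called genes whose mean went from under 1 to 5 or more numbered 12, among them NPY, BTN3A3, IPCEF1, HCP5, YAP1, FOSB, EGR2 and COL9A3. The 3 that went from 5 or more to under 1 were PTGS1, PSD2 and DOK5.

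**Figure D1:**
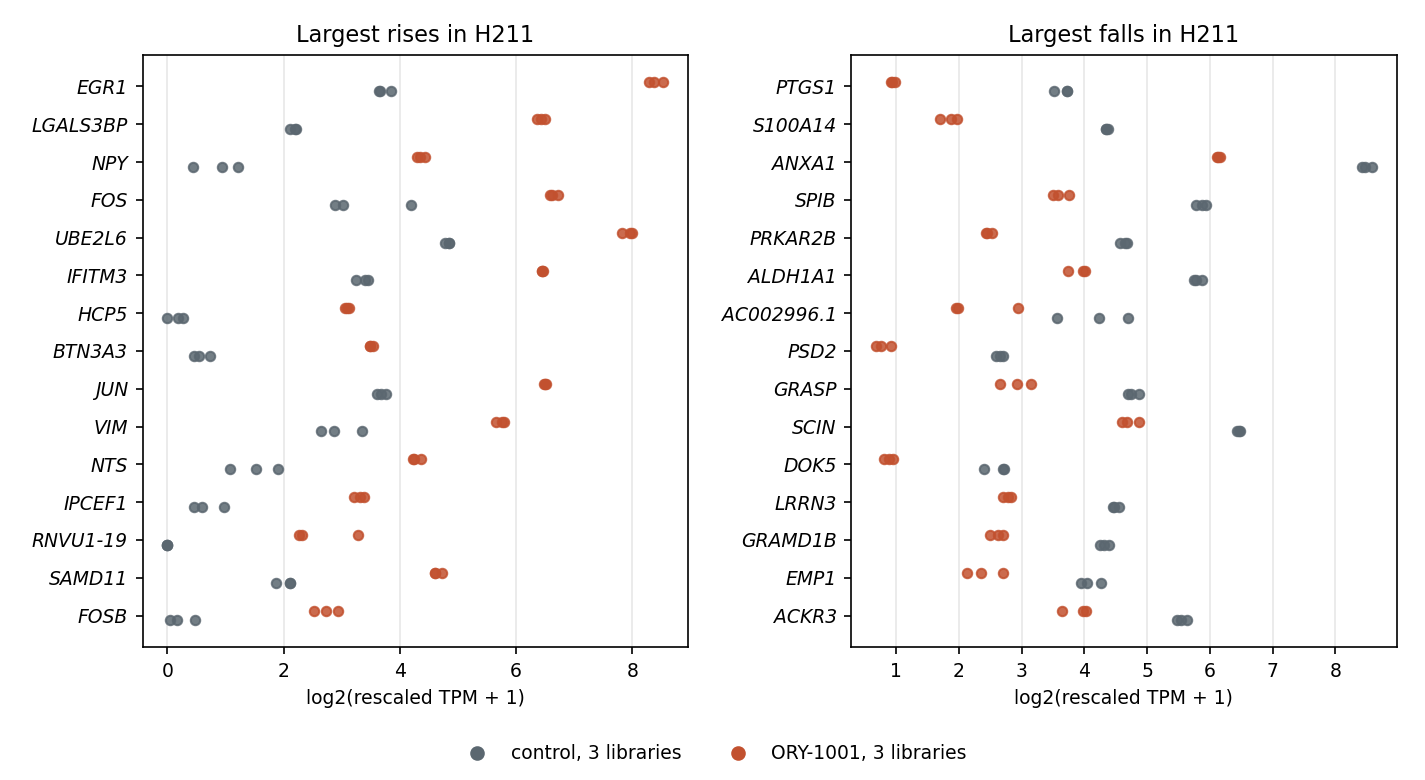
The 15 largest rises (left) and 15 largest falls (right) in H211 outside antigen presentation and the marker lists of other cell types, with log2(rescaled TPM + 1) on the x axis and 1 point per library, control in grey and ORY-1001 in orange. By the rule that chose them the groups do not overlap; EGR1 was between 310 and 367.7 in the treated libraries, and AC002996.1 and FOS show the widest spread among controls.

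Transcripts of blood cells varied between H211 libraries of the same treatment. Summed over 22 erythroid genes, globins among them, the level was 200.3, 181 and 59.4 in control replicates 1, 2 and 3 and 67.3, 53.1 and 0.633 in ORY-1001 replicates 1, 2 and 3. Controls 1 and 2 thus stood about 3 times above control 3 and treated 1 and 2, and treated 3 held almost none. A like pattern held in HBE1, embryonic epsilon-globin, at 78.8, 71.3 and 11.9 and then 14, 10.8 and 0.141, in HBA1, alpha-globin, at 26.1, 23.9 and 9.89 and then 10.6, 8.84 and 0, and in HBZ, embryonic zeta-globin, at 8.18, 9.13 and 3.87 and then 4.02, 2.6 and 0. HBG1 and HBG2, and HBA1 and HBA2, are near-identical pairs, so the split of reads within a pair is uncertain.

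White-cell transcripts followed other patterns. The 23 granulocyte genes summed to 33.4, 127 and 1.94 in the controls and 0.786, 1.01 and 20.5 with the drug, and the 23 monocyte and macrophage genes to 19.1, 86 and 3.93 and 3.77, 4.28 and 48.8. Control 2 was highest for both. It alone held S100A8 and S100A9, the calprotectin subunits of neutrophils, at 58.1 and 57.7 against 0.252 or less in the other 5 libraries, and S100A12, at 8.55 against 0. CD74, the class II invariant chain, was at 16.2 there and at 3.23 in treated 3, against under 0.2 in the other 4. SRGN, a proteoglycan of blood cell granules, was at 11.9, 4.9 and 0.763 in the controls and 0.49, 0.51 and 16 with the drug, high in control 1 and treated 3. A search for genes at 3 or more in 1 library and at least 3 times every other library found 25 for control 2, among them CD52, FCER1G, FCN1, HLA-DRA and IGKC. All 25 were chosen by their values; 5 of them passed the filter and none was called.

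The same signatures crossed the lines and treatments. Control 1 of H211 shared its pattern with H82 ORY-1001 replicate 3, where the erythroid sum was 220.7 and the granulocyte sum 34.3, and treated 3 of H211 with H82 ORY-1001 replicates 1 and 2, whose monocyte sums were 47.1 and 54.1 and erythroid sums 6.62 and 5.35. The lowest white-cell sums were in H211 control 3, treated 1 and treated 2 and the 3 H82 controls. In H82 both white-cell sums were thus higher in every treated library than in every control, and cannot be told apart from treatment there. The granulocyte sums in H82 were 0.98, 1.1 and 1.29 in the controls and 20.2, 19.7 and 34.3 with the drug. In that line 3 of 4 tested granulocyte markers and 4 of 11 monocyte and macrophage markers were called higher. Over all tested genes 19.1% were called higher in H82. Of the 26 tested markers of erythroid, granulocyte, monocyte, B-cell and platelet lists, 0 were called in H211; of 2 tested T and NK cell markers 1 was, CD8A, at 2.58, 2.26 and 2.35 and 1.62, 1.38 and 1.66 (log2 fold change -0.41, adjusted p = 0.00946). That call ended at a pseudocount of 0.1 (adjusted p = 0.134) and without the 3 H211 libraries that stood apart in blood transcripts (adjusted p = 0.127). CD79B, a B-cell receptor chain, was at 10.4, 11.8 and 15.5 and 14, 15.9 and 16.1, and was called higher without control 3 (adjusted p = 0.0367). Endothelial sums stayed between 1.14 and 2.09. At 0 in all 6 libraries were 4 of 23 monocyte and macrophage genes, the complement genes C1QA, C1QB and C1QC among them. So were 3 of 23 granulocyte genes, such as CAMP, and 2 of 16 B and plasma cell genes, such as VPREB1. The part of blood-cell transcripts in the results was not tested. Each lead count was recomputed without the libraries that stood apart.

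**Figure D2:**
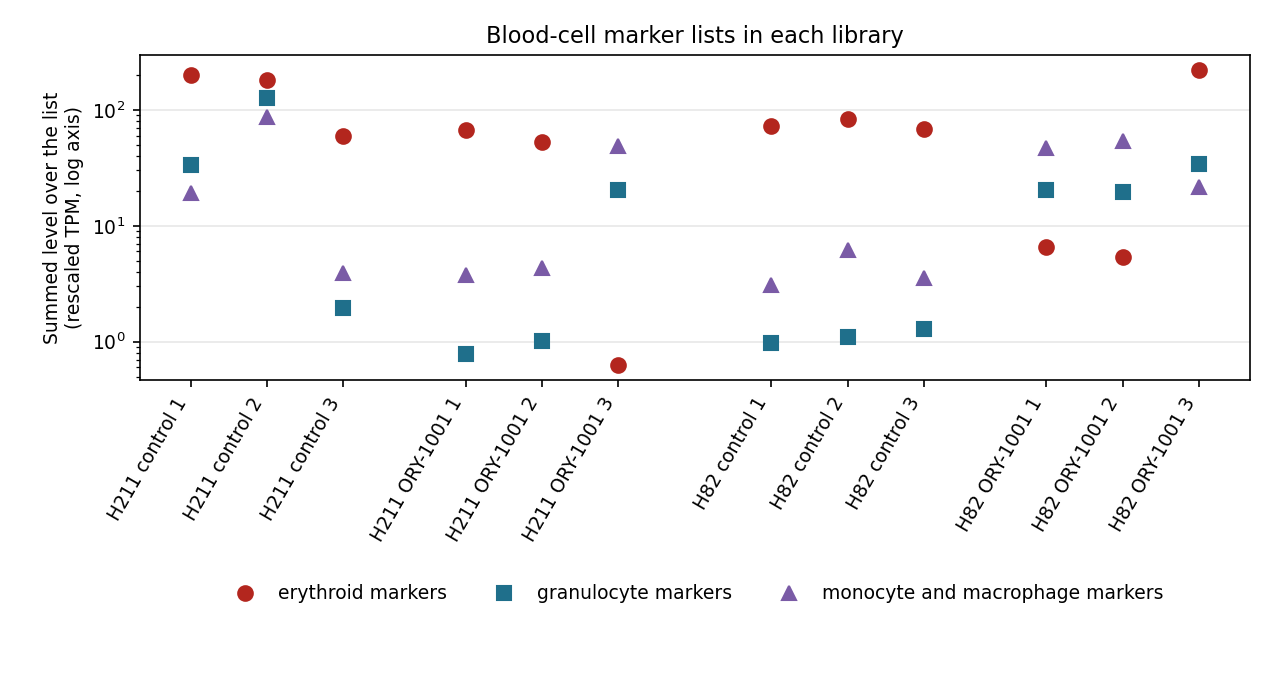
Summed level (rescaled TPM, log axis) of the erythroid (circles), granulocyte (squares) and monocyte and macrophage (triangles) marker lists in each of the 12 libraries, 1 point per library and list. In H211 the erythroid sum runs from 0.633 in ORY-1001 replicate 3 to 200.3 in control replicate 1, and no list separates the treated from the control libraries of that line. In H82 the granulocyte list and the monocyte and macrophage list do separate them.

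Without control 2 and treated 3 of H211, the libraries high in LYZ, 803 genes were called higher and 744 lower, and 151 and 97 of them at least 2-fold. Without control 1 as well, 420 and 354 were called, with 162 and 88 at least 2-fold. That last fit was added after the data were seen and leaves control 3 alone against treated 1 and 2, so the lone control is assumed to vary like the other groups. The 2-fold counts thus stayed within 1.5 times of those over all libraries, and the totals did not. Of the genes named in the results below, these kept their direction but were not called in the last fit (adjusted p = 0.0501 to 0.702): AC002996.1, AKR1C3, BCL2, BHLHE40, BHLHE41, CTBP2, DDX58, E2F8, FZD8, GFI1B, HES4, HMX2, ICAM1, KCNQ1, LIFR, LRMP, MCM3, MT1E, MT1G, MT1X, NFKB1, NFKBIA, PTGES2, RGS13, RN7SL2, RNVU1-19, SERPING1, SLC2A1, SOX9, SPRED2, TBK1, TCF4, TSPAN4, TSPAN6, VEGFA and 5 ribosomal protein genes.

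Immediate early genes, which cells switch on within minutes of a growth or stress signal, were among the largest rises. EGR1, a zinc finger factor (chr5:138465490-138469315, the gene body in GENCODE 29), was at 11.7, 11.4 and 13.3 in the controls and 329.9, 368 and 310 with ORY-1001. All 3 treated libraries stood far above all controls, 27.7-fold higher (log2 fold change 4.68 with SE 0.25 and adjusted p = 2.62e-07). JUN, a subunit of the AP-1 factor (chr1:58780788-58784327), was at 11.2, 11.8 and 12.6 and 88.7, 89.3 and 90.8 (log2 fold change 2.82 with SE 0.054 and adjusted p = 4.26e-11), with almost no spread in either group. FOS, the other classical AP-1 subunit (chr14:75278774-75282230), was at 7.1, 17.3 and 6.37 and 95, 96.8 and 105 (log2 fold change 3.27 with SE 0.27 and adjusted p = 1.08e-05). The high control of FOS was replicate 2, the library with the most granulocyte and monocyte transcripts; without controls 1 and 2 and treated 3 the log2 fold change was 3.72. FOSB rose 31.1-fold from 0.182 ± 0.184 to 5.67 ± 0.946, and EGR2 from 0.291 ± 0.136 to 5.16 ± 0.848.

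Of 31 tested immediate early genes, 18 were called higher and 2 lower, with a median log2 fold change of 0.45; 17 were called higher without the 3 libraries that differ in blood transcripts. IER2 rose 4.91-fold, JUNB 3.8-fold and the stress factor ATF3 3.12-fold, with adjusted p = 4.26e-11, 3.84e-09 and 1.84e-08. The list did not move as one: MAFF and MCL1 were called lower, and the orphan receptors NR4A1 and NR4A2 and KLF4 were not called. Genes that feed back on the ERK kinases were mixed, 4 higher and 3 lower of 17. DUSP1, a phosphatase of MAP kinases, was at 4.12, 8.24 and 4.85 and 24.8, 27.5 and 24.9 (log2 fold change 2.03 with SE 0.18 and adjusted p = 1.5e-05), again with its highest control in replicate 2. DUSP10 rose 1.66-fold, while SPRED2, an inhibitor of RAS signalling, fell from 14.7 ± 1.05 to 10.1 ± 0.847.

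Of 20 tested ETS factors, which often act below ERK, 6 were lower, 2 higher and 12 not called. ETV4 fell from 4.04 ± 0.694 to 1.01 ± 0.354 (log2 fold change -1.33 with SE 0.17 and adjusted p = 0.000252), whereas ETV1 rose 2.55-fold and ETV7, an interferon-inducible member, 3.78-fold from 2.32 ± 0.453 to 8.76 ± 1.09. In the BMP branch, BMP2, a secreted ligand, rose 2.44-fold, from 11.4 ± 0.207 to 27.7 ± 2.17. ID4, one of the inhibitors of basic helix-loop-helix factors that BMP signals induce, was at 16.9, 18.3 and 17.1 and 50.4, 54 and 53.2 (log2 fold change 1.54 with SE 0.059 and adjusted p = 1.84e-08). Controls and treated libraries of ID4 were far apart, and ID4 fell in H82 (log2 fold change -1.31), with adjusted p = 4.98e-09 for the difference between lines. Of 40 tested TGF-beta, BMP and ID genes 8 were higher and 6 lower.

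Some targets of the coactivator YAP1 rose from low levels. CYR61, a matricellular protein that is also an immediate early gene, went from 2.42 ± 0.47 to 13.2 ± 0.984 (log2 fold change 2.06 with SE 0.11 and adjusted p = 3.06e-07), and AMOTL2, an angiomotin that binds YAP1, from 0.786 ± 0.0544 to 3.46 ± 0.254 (log2 fold change 1.32 with SE 0.071 and adjusted p = 3.13e-07). ANKRD1, a muscle ankyrin repeat protein, went from 0.24 ± 0.132 to 1.81 ± 0.273. Of 26 tested Hippo and YAP genes 8 were higher, 3 lower and 15 not called, with a median of -0.03. In the NF-kB list only 3 of 21 were called, all higher: NFKB1, the inhibitor NFKBIA and the adhesion molecule ICAM1, whose mean with the drug was 1.09 ± 0.364. None of the 3 was called without the 3 libraries that differ in blood transcripts (adjusted p = 0.163, 0.192 and 0.0641), nor were NFKB1 and NFKBIA without the 2 high in LYZ (adjusted p = 0.0746 and 0.0505). Notch genes were called higher in 4 of 26 and lower in 2, with HEY1 up 2.5-fold and HES4 1.96-fold. WNT genes were higher in 3 of 31 and lower in 4, with WNT5A up 2.35-fold and the receptor FZD8 down 1.56-fold. The shares called, 23.1% and 22.6%, were near the 18.6% of all tested genes.

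Interferon-stimulated genes rose well beyond antigen presentation, while most of the signalling genes above them were not called. LGALS3BP, a secreted glycoprotein that binds galectins (chr17:78971238-78980109), was at 3.34, 3.66 and 3.58 in the controls and 85.5, 89.8 and 81.3 with the drug. That is 24.2-fold higher with a narrow spread in both groups (log2 fold change 4.26 with SE 0.13 and adjusted p = 3.04e-09). UBE2L6, the conjugating enzyme of the ubiquitin-like protein ISG15 (chr11:57551656-57568284), was at 27.9, 27.9 and 26.4 and 255, 249 and 224 (log2 fold change 3.10 with SE 0.063 and adjusted p = 5.54e-11). IFITM3, a membrane protein that blocks virus entry (chr11:319669-327537), rose 9.3-fold (log2 fold change 3.09 with SE 0.091 and adjusted p = 2.31e-09); it shares sequence with IFITM1 and IFITM2, which were not called. PARP9, an ADP-ribosyltransferase partner of DTX3L, rose from 4.01 ± 0.276 to 19.1 ± 0.765.

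Of 45 tested interferon-stimulated effectors, 29 were called higher and 1 lower, PLSCR1, with a median log2 fold change of 0.54. Without the 3 libraries that differ in blood transcripts the higher count was 22. Among signalling genes 6 of 27 were called (22.2%), near the 18.6% of all tested genes. IRF9, a DNA-binding subunit of the ISGF3 complex, was at 3.28, 4.71 and 5.71 and 19.4, 24.5 and 24.4 (log2 fold change 2.11 with SE 0.23 and adjusted p = 8.01e-05). IRF1 rose 3.51-fold and STAT3 1.88-fold, and IRF5 was called lower. The RNA sensors IFIH1 and DDX58 rose 2.08-fold and 1.54-fold. They and the kinase TBK1 were the 3 of 14 nucleic acid sensing genes called (21.4%), again near the share of all tested genes. The call of TBK1 ended in 15 of the 25 other settings.

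Transcripts of the class I region and of the butyrophilins rose as well. HCP5, a long noncoding RNA of the HLA region (chr6:31400702-31477506), was at 0, 0.133 and 0.211 and 7.48, 7.35 and 7.73 (log2 fold change 2.94 with SE 0.097 and adjusted p = 5.09e-09). BTN3A3, a butyrophilin of the family that presents phosphoantigen signals to gamma-delta T cells (chr6:26440472-26453415), was at 0.659, 0.374 and 0.467 and 10.3, 10.6 and 10.2 (log2 fold change 2.92 with SE 0.1 and adjusted p = 8.77e-09). Its close copies BTN3A2 and BTN3A1 were called higher too, BTN3A2 from 9.78 ± 1.13 to 21.3 ± 2.73; the 3 share sequence, so their separate levels are uncertain. Of 22 immune ligand and checkpoint genes 7 were higher and 3 lower. The death receptor FAS rose from 0.752 ± 0.215 to 2.71 ± 0.0356, TNFRSF14 from 0.564 ± 0.367 to 2.78 ± 0.362, and PVR, a ligand of the NK-cell receptor DNAM-1, fell from 172 ± 6.28 to 103 ± 2.2 (log2 fold change -0.73 with SE 0.046 and adjusted p = 1.23e-06). In antigen presentation itself, given here only as a marker, PSMB9, an immunoproteasome subunit, was at 0.645, 2.14 and 1.33 and 261, 248 and 250.5, and 16 of 25 tested genes were higher and 0 lower.

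Some genes of cytokines and complement changed. IL15RA, which presents IL-15, rose from 0.713 ± 0.0538 to 3.97 ± 0.331, and CXCL12, a chemokine, from 0.831 ± 0.143 to 4.98 ± 0.916 (log2 fold change 1.70 with SE 0.12 and adjusted p = 2.21e-06). ACKR3, the atypical receptor that takes up CXCL12 (chr2:236567787-236582358), moved the opposite way, at 45.7, 43.5 and 48.7 and 15.2, 11.5 and 14.8 (log2 fold change -1.67 with SE 0.13 and adjusted p = 7.87e-06), with every treated library below every control. LIFR, a receptor of the IL-6 family, fell 1.72-fold, and of 36 tested chemokine and cytokine genes 5 were higher and 8 lower. The complement regulators CD46 and CD55, which protect the cell surface, fell 1.6-fold and 1.47-fold (adjusted p = 0.00015 and 0.000151), and SERPING1, the C1 inhibitor, rose from 0.552 ± 0.157 to 1.68 ± 0.0663. In that list 7 were higher and 5 lower of 27.

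The tuft-cell factors split. SPIB, an ETS factor (chr19:50418938-50431313), fell 5.1-fold (log2 fold change -2.26 with SE 0.17 and adjusted p = 5.11e-06), and MYB, at 54.7, 55.2 and 56 and 40.1, 40.8 and 40.8, fell 1.36-fold. FOXI1, a forkhead factor of ionocytes, went the other way, at 31.9, 33.9 and 32 and 80.3, 86.2 and 78.5 (log2 fold change 1.30 with SE 0.1 and adjusted p = 9.21e-06). GFI1B rose 1.84-fold, a call that is lost with a pseudocount of 0.1 (adjusted p = 0.161) and without the 3 libraries that differ in blood transcripts (adjusted p = 0.0772). HMX3 and HMX2 were lower, from 1.62 ± 0.234 to 0.531 ± 0.105 and from 2.03 ± 0.253 to 1.1 ± 0.215. Of 13 tested factors 5 were lower and 2 higher, with a median log2 fold change of -0.16.

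POU2F3 itself depends on the fit. It was at 285, 281 and 277 in the controls and 246, 263 and 246 with the drug, with no overlap between the groups, and had adjusted p = 0.369 in the fit over 12 libraries and 0.034 in a fit of the 6 H211 libraries alone. AVIL, at 663, 653 and 661 and 502, 488 and 527, and TRPM5, at 39.5, 38.5 and 37.4 and 31.6, 32.6 and 31.1, likewise had adjusted p = 0.19 and 0.112, and 0.00208 and 0.0094 in H211 alone. The fit over 12 libraries estimates each gene's spread from both lines, and that of H211 alone from this line only. ASCL2 and C11orf53, at 177, 181 and 184 and 309.7, 314 and 313 with the drug, had adjusted p = 0.8 and 0.83, and SOX9 (adjusted p = 0.0422) lost its call in 15 of the 25 other settings.

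More effectors of tuft cells fell than rose. Of 29 tested, 16 were lower and 3 higher, with a median log2 fold change of -0.50; without the 2 libraries high in LYZ 12 were lower, and without the 3 that differ in blood transcripts 7. RGS13, a regulator that shortens G-protein signals (chr1:192636138-192660306), was at 1349, 1383 and 1467 and 581, 574 and 562 (log2 fold change -1.29 with SE 0.18 and adjusted p = 0.000519); without the 3 libraries its log2 fold change was -1.34 and its adjusted p 0.0512. BMX, a cytoplasmic tyrosine kinase, was at 224, 226 and 232 and 119, 122 and 128 (log2 fold change -0.88 with SE 0.063 and adjusted p = 3.25e-06). LRMP, a protein of the endoplasmic reticulum, fell from 1162 ± 44.4 to 702 ± 26.8, with adjusted p = 0.104 without the 3 libraries, and the receptor kinase KIT fell from 17.1 ± 0.521 to 11.6 ± 0.899. The G-protein subunit GNB3, one of the 3 that rose, had a control mean of 1.69 and a treated mean of 5.32; it was named after its values were seen.

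**Figure D3:**
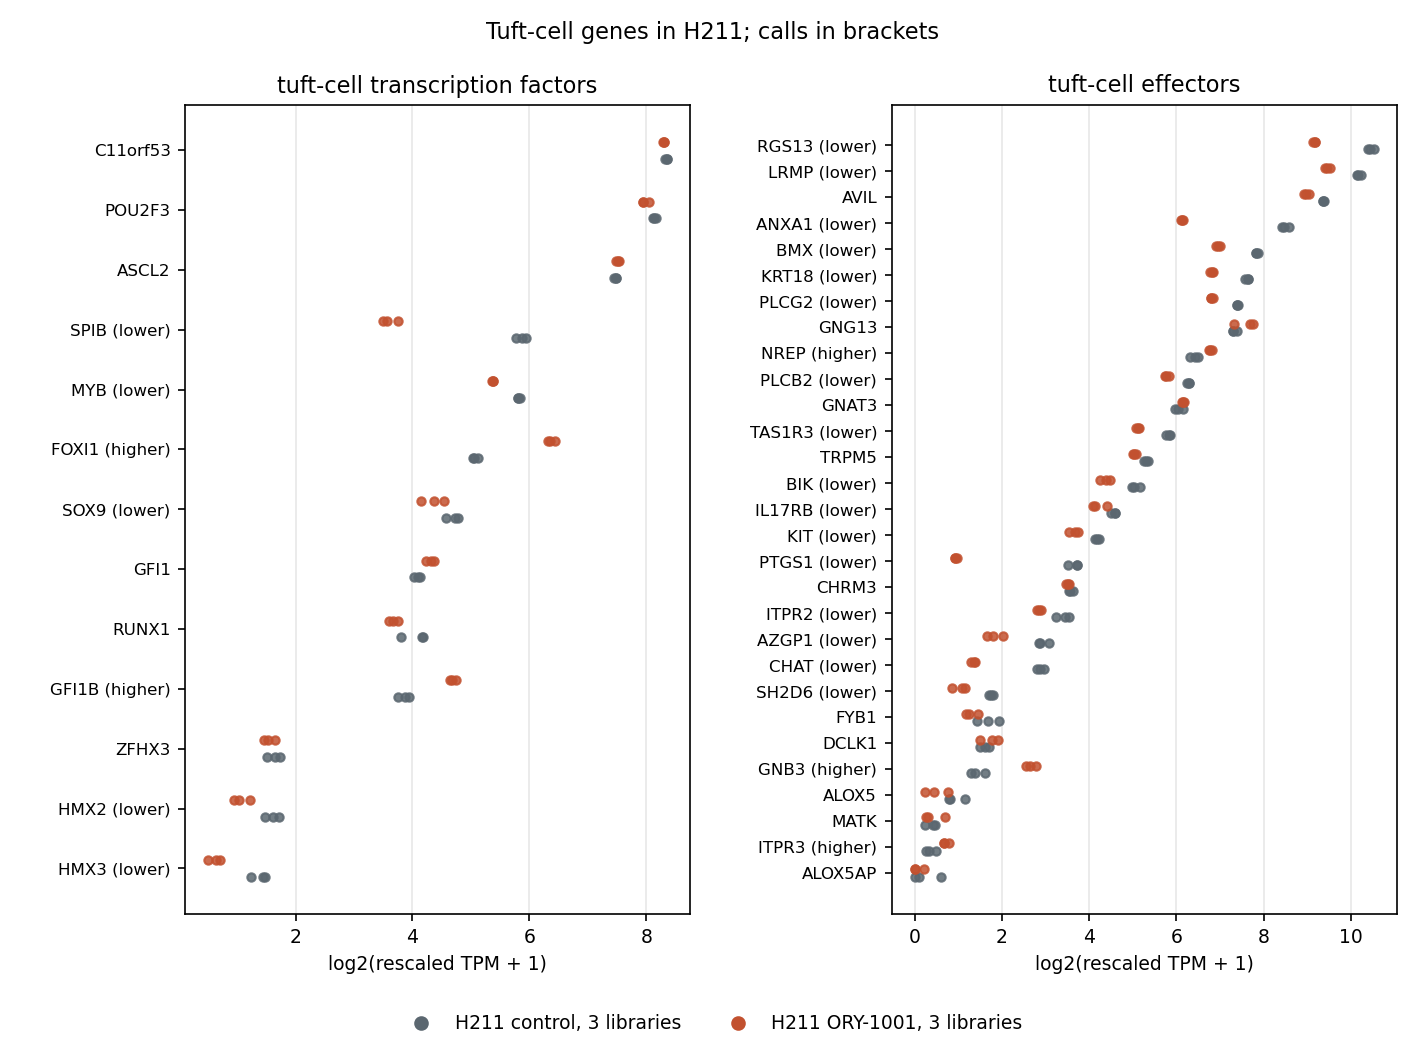
Levels of the tested tuft-cell transcription factors (left) and effectors (right) in H211, as log2(rescaled TPM + 1) on the x axis with 1 point per library, control in grey and ORY-1001 in orange, genes ordered by their control mean. Called genes carry their direction in brackets: 2 factors higher and 5 lower, 3 effectors higher and 16 lower.

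Lipid mediators and intracellular messengers showed single large falls rather than whole pathways. PTGS1, the constitutive cyclooxygenase (chr9:122370530-122395703), was at 12.1, 12.2 and 10.4 and 0.904, 0.891 and 0.97, 12.6-fold lower (log2 fold change -2.71 with SE 0.095 and adjusted p = 8.52e-09), the largest fall among called genes on the fitted scale. PLA2G4A, which frees arachidonic acid for it, fell 1.49-fold, from 56 ± 1.74 to 37.5 ± 2.02. The rest of the 22 tested eicosanoid genes were called in 4 cases, 3 higher (PTGES2, PTGES3 and LTA4H) and 1 lower (AKR1C3). In cyclic nucleotide signalling 5 of 36 were called, led by PRKAR2B, a regulatory subunit of protein kinase A (chr7:107044649-107161811), at 24.6, 24.2 and 22.8 and 4.44, 4.39 and 4.77 (log2 fold change -2.17 with SE 0.11 and adjusted p = 2.62e-07). PDE1C, a phosphodiesterase activated by calmodulin, fell 2.54-fold. RGS2 fell from 749 ± 66.9 to 343 ± 17.2, and of 16 RGS genes 3 were lower and 1 higher (25% called). Ion channels were called in 7 of 33, 6 lower, among them the potassium channel KCNQ1, down 1.59-fold. That is 21.2% called, near the 18.6% of all tested genes.

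Several calcium- and membrane-binding proteins fell. ANXA1, a phospholipid-binding annexin (chr9:73151757-73170393), was at 342, 352 and 381 and 70.4, 68.7 and 68 (log2 fold change -2.36 with SE 0.11 and adjusted p = 9.41e-08), and ANXA4 fell from 380.2 ± 5.94 to 227 ± 11.3. S100A14 (chr1:153614255-153616986) was at 19.4, 19.3 and 19.7 and 2.66, 2.25 and 2.91, 7.46-fold lower, with the lowest control 6 times above the highest treated library. S100 and annexin genes were lower in 7 of 20 and higher in 1. SCIN, scinderin, which cuts actin filaments (chr7:12570577-12660179), was at 85.4, 88.5 and 86.8 and 28.1, 24.6 and 23.2 (log2 fold change -1.75 with SE 0.1 and adjusted p = 7.57e-07). PSD2, an exchange factor for ARF6, fell 7.23-fold, the scaffold GRASP 3.99-fold, and GRAMD1B, which carries sterol between membranes, 3.71-fold. DOK5, an adaptor of receptor kinases, fell 6.07-fold and LRRN3, a neuronal leucine-rich repeat protein, 3.69-fold. EMP1, an epithelial membrane protein, fell 3.69-fold, with adjusted p = 0.000839 and 0.0886 at a pseudocount of 0.1. IPCEF1, a partner of cytohesins, the exchange factors of ARF proteins, was at 0.511, 0.955 and 0.374 and 8.93, 8.21 and 9.48 (log2 fold change 2.63 with SE 0.12 and adjusted p = 1.05e-07).

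The aldehyde dehydrogenases ALDH1A1 and ALDH2 fell. ALDH1A1, which makes retinoic acid from retinal (chr9:72900662-73080442), was at 53.8, 52.8 and 57.9 and 14.7, 12.4 and 15.1 (log2 fold change -1.90 with SE 0.12 and adjusted p = 1.26e-06). ALDH2, the mitochondrial enzyme of acetaldehyde (chr12:111766887-111817529), was at 65, 61.1 and 65.5 and 20.6, 20.6 and 19.1 (log2 fold change -1.62 with SE 0.07 and adjusted p = 5.24e-08). Both were lower in every treated library, and 6 of 17 tested symbols beginning with ALDH were lower and 1 higher. AC002996.1 (chr12:111753890-111791418), at 17.8, 24.9 and 10.9 and 2.96, 6.64 and 2.86, overlaps ALDH2 on the same strand in the annotation, so their reads may not be separable, and its adjusted p was 0.104 without the 3 libraries that differ in blood transcripts. On the other side of retinoid metabolism, CYP26A1, which breaks down retinoic acid, rose from 1.09 ± 0.28 to 7.07 ± 0.798 (log2 fold change 1.95 with SE 0.11 and adjusted p = 6.08e-07), and the binding protein CRABP1 from 0.397 ± 0.101 to 1.61 ± 0.207. Of 22 retinoid genes 5 were higher and 4 lower.

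In the cytoskeleton and matrix, single genes rose strongly. DCN, decorin, a small proteoglycan of connective tissue and a member of the fibroblast marker list (chr12:91140484-91183123), was at 3.92, 3.96 and 4.42 and 68, 62.1 and 61.5, 15.6-fold higher (log2 fold change 3.67 with SE 0.22 and adjusted p = 6.08e-07). It fell outside the naming rule and was chosen after its values were seen; the other 4 tested fibroblast markers were not called, and the log2 fold change was 3.61 without the 3 libraries that differ in blood transcripts. VIM, the intermediate filament of mesenchymal cells (chr10:17228259-17237593), was at 6.27, 9.21 and 5.25 and 49.3, 54.1 and 53.2 (log2 fold change 2.78 with SE 0.13 and adjusted p = 1.21e-07). Its highest control was replicate 2, the library rich in white-cell transcripts. COL15A1, a basement membrane collagen, rose from 6.35 ± 0.641 to 30.4 ± 2.28, and COL9A3, a cartilage collagen, from 0.447 ± 0.14 to 5.07 ± 0.478.

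Mesenchymal genes were higher in 7 of 21 and lower in 1, with the repressor ZEB1 rising only from 1.36 ± 0.208 to 3.79 ± 0.538 and SPARC losing its call (adjusted p = 0.0282) in 9 of the 25 other settings. Epithelial junction and keratin genes went down in 18 of 42 and up in 7, with a median log2 fold change of -0.36. That lower count varied most among the 6 lists recomputed in every setting: 11 without the 2 libraries high in LYZ, 3 without the 3 that differ in blood transcripts and 9 at a pseudocount of 0.1. KRT20, a keratin of gut epithelium, fell from 4.47 ± 0.47 to 1.26 ± 0.278 (log2 fold change -1.28 with SE 0.11 and adjusted p = 1.72e-05). KRT19, a simple epithelial keratin, did the reverse, at 49.1, 47.9 and 51 and 174, 172 and 169 (log2 fold change 1.78 with SE 0.088 and adjusted p = 1.45e-07), and KRT17 rose from 1.6 ± 0.245 to 6.11 ± 0.402. The adhesion molecule EPCAM, outside the naming rule, was at 676, 684 and 652 and 682, 646 and 666 and was not called. Integrin and matrix genes were split, 8 higher and 9 lower of 38, with ITGA4, the alpha-4 integrin, falling from 6.33 ± 0.375 to 2.47 ± 0.112 and ITGB1 from 146 ± 0.493 to 119.9 ± 4.97.

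The neuropeptide genes NPY and NTS rose, while most neuroendocrine genes were not called. NPY, neuropeptide Y (chr7:24284163-24291865), was at 1.33, 0.36 and 0.911 and 19.5, 20.7 and 18.7, 22.6-fold higher (log2 fold change 3.50 with SE 0.16 and adjusted p = 1.03e-07). NTS, neurotensin (chr12:85874295-85882992), was at 1.1, 1.88 and 2.77 and 17.7, 18 and 19.7 (log2 fold change 2.78 with SE 0.2 and adjusted p = 4.31e-06). All treated libraries of both lay far above the controls, while CALCA, which encodes calcitonin and CGRP, fell from 8.49 ± 1.61 to 3.73 ± 0.106. The call of CALCA ended at a pseudocount of 0.1 (adjusted p = 0.139). Of 35 tested neuroendocrine and synaptic genes 7 were higher and 3 lower, with a median of 0.15. The neuronal tubulin TUBB3 rose 1.72-fold and the adhesion molecule NCAM1 1.25-fold; NEUROD1, INSM1, SYP and CHGA were not called (adjusted p = 0.391, 0.501, 0.113 and 0.241). Without control 3, CHGA (log2 fold change 0.64 against 0.34, adjusted p = 0.000392) and SYP (adjusted p = 0.0489) were called higher, and without control 2 NEUROD1 was (adjusted p = 0.0474). SAMD11 was at 3.33, 3.31 and 2.64 and 23.3, 23.4 and 25.6 (log2 fold change 2.62 with SE 0.11 and adjusted p = 3.59e-08). RNVU1-19, a variant of the U1 small nuclear RNA, was listed at 0 in the 3 controls and at 3.83, 8.75 and 3.99 with the drug; its adjusted p was 0.0192, and its call ended in 6 other settings.

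Genes of lipid synthesis fell, and none was called higher. Of 38 tested genes of cholesterol and fatty acid synthesis, 25 were called lower and 0 higher, with a median log2 fold change of -0.32. In H82 26 were higher and 4 lower, with a median of 0.32, and over all tested genes 19.1% were higher and 23.9% lower there. SCD, the stearoyl-CoA desaturase, was at 107, 109.9 and 99.1 and 54.2, 56.9 and 53.4 (log2 fold change -0.93 with SE 0.044 and adjusted p = 1.09e-07). INSIG1, which holds SREBP precursors in the endoplasmic reticulum, was at 52.2, 54.6 and 52.3 and 32.4, 30.5 and 29.7 (log2 fold change -0.76 with SE 0.044 and adjusted p = 4.94e-07). MSMO1, a sterol demethylation enzyme, fell from 29.6 ± 1.49 to 16.9 ± 0.607. Every treated library of these 3 lay below every control. In H82, SCD, INSIG1 and MSMO1 rose (log2 fold change 0.43, 0.88 and 0.41), and the differences between lines had adjusted p = 1.14e-07, 2.01e-08 and 4.03e-06. The lower count was 20 without the 2 libraries high in LYZ and 16 without the 3 that differ in blood transcripts.

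Glutamine synthetase and 22 of 42 stress response genes fell. Its gene GLUL (chr1:182381704-182392206) had the largest fall in level among called genes, at 2216, 2128 and 2045 and 1194, 1262 and 1059 (log2 fold change -0.87 with SE 0.057 and adjusted p = 1.81e-06). Of 42 integrated stress response genes, which the factor ATF4 induces when amino acids run short, 22 were lower and 3 higher (median -0.25), and 11 were lower without the 3 libraries that differ in blood transcripts. GARS, a glycyl-tRNA synthetase, fell from 124 ± 2.75 to 94 ± 4.14 and SLC1A4, a neutral amino acid transporter, from 17 ± 0.686 to 10.4 ± 0.312. The 3 that rose were ATF3, the chaperone HSPA5 and PPP1R15A, which directs dephosphorylation of eIF2 alpha and went from 15 ± 0.698 to 34.3 ± 3.49. In the hypoxia and glycolysis list 9 of 39 were lower and 2 higher. NDRG1 fell 1.86-fold, VEGFA, the angiogenic growth factor, 1.5-fold, and the glucose transporter SLC2A1 1.27-fold, and SLC2A1 rose in H82 (log2 fold change 1.31).

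Some metal-binding and redox genes rose. Of 10 metallothioneins, which bind zinc and copper, 5 were higher and 0 lower (median 0.55), with MT2A at 90.2, 98.8 and 102 and 174, 159 and 173 (log2 fold change 0.79 with SE 0.082 and adjusted p = 6.5e-05). MT1X, MT1E and MT1G rose 1.24-fold, 1.47-fold and 1.73-fold; the genes are near-identical, so their separate levels are uncertain, and MT1G lost its call in 9 other settings. GPX1, a glutathione peroxidase, rose from 87.1 ± 3.92 to 158 ± 12.3 (log2 fold change 0.85 with SE 0.069 and adjusted p = 9.21e-06).

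Cell cycle and survival genes changed by small steps. Cell cycle genes were lower in 14 of 53 and higher in 2, with TOP2A, a topoisomerase of dividing cells, at 182, 183 and 186 and 154, 149 and 153 (log2 fold change -0.27 with SE 0.032 and adjusted p = 0.000157). The helicase subunit MCM3 fell 1.17-fold and E2F8 1.43-fold. MYC was higher, at 444, 425 and 411 and 605, 600 and 545 (log2 fold change 0.45 with SE 0.051 and adjusted p = 0.000129), and MXD4, which competes for its partner MAX, rose 1.6-fold. Of the BCL2 family 5 were lower and 2 higher of 15. The survival factor BCL2 fell from 109.9 ± 5.35 to 68 ± 5.38 and the killers BBC3 and BIK 1.89-fold and 1.64-fold, while BID rose 1.38-fold. Receptor tyrosine kinases were lower in 7 of 31 and higher in 2, with EPHA1 and EPHA4 down 1.7-fold and 1.54-fold. Among blood lineage factors 7 were higher and 4 lower of 30, MAF rising from 1.56 ± 0.212 to 4.47 ± 0.432 and TCF4 1.39-fold. In the CoREST complex HDAC1 fell 1.2-fold and CTBP2 1.17-fold, and 16 of 22 were not called.

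Among called genes whose groups did not overlap, 5 ribosomal protein genes were among the 6 largest rises in level outside antigen presentation. RPS19 was at 4152, 4108 and 4441 and 5012, 4934 and 5108 (log2 fold change 0.25 with SE 0.043 and adjusted p = 0.00249), and RPL12 at 3019, 3046 and 3115 and 3640, 3787 and 3633 (log2 fold change 0.27 with SE 0.059 and adjusted p = 0.00907). RPL27, RPL35 and RPL31 rose by log2 fold changes of 0.23 to 0.29. With quantile normalization the 5 kept their direction at 0.09 to 0.17 and none was called (adjusted p = 0.118 to 0.581), and without the 3 libraries that differ in blood transcripts none was called either (adjusted p = 0.103 to 0.593). RN7SL2, an RNA of the signal recognition particle, fell from 1444 ± 83.5 to 906 ± 104.

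**Figure D4:**
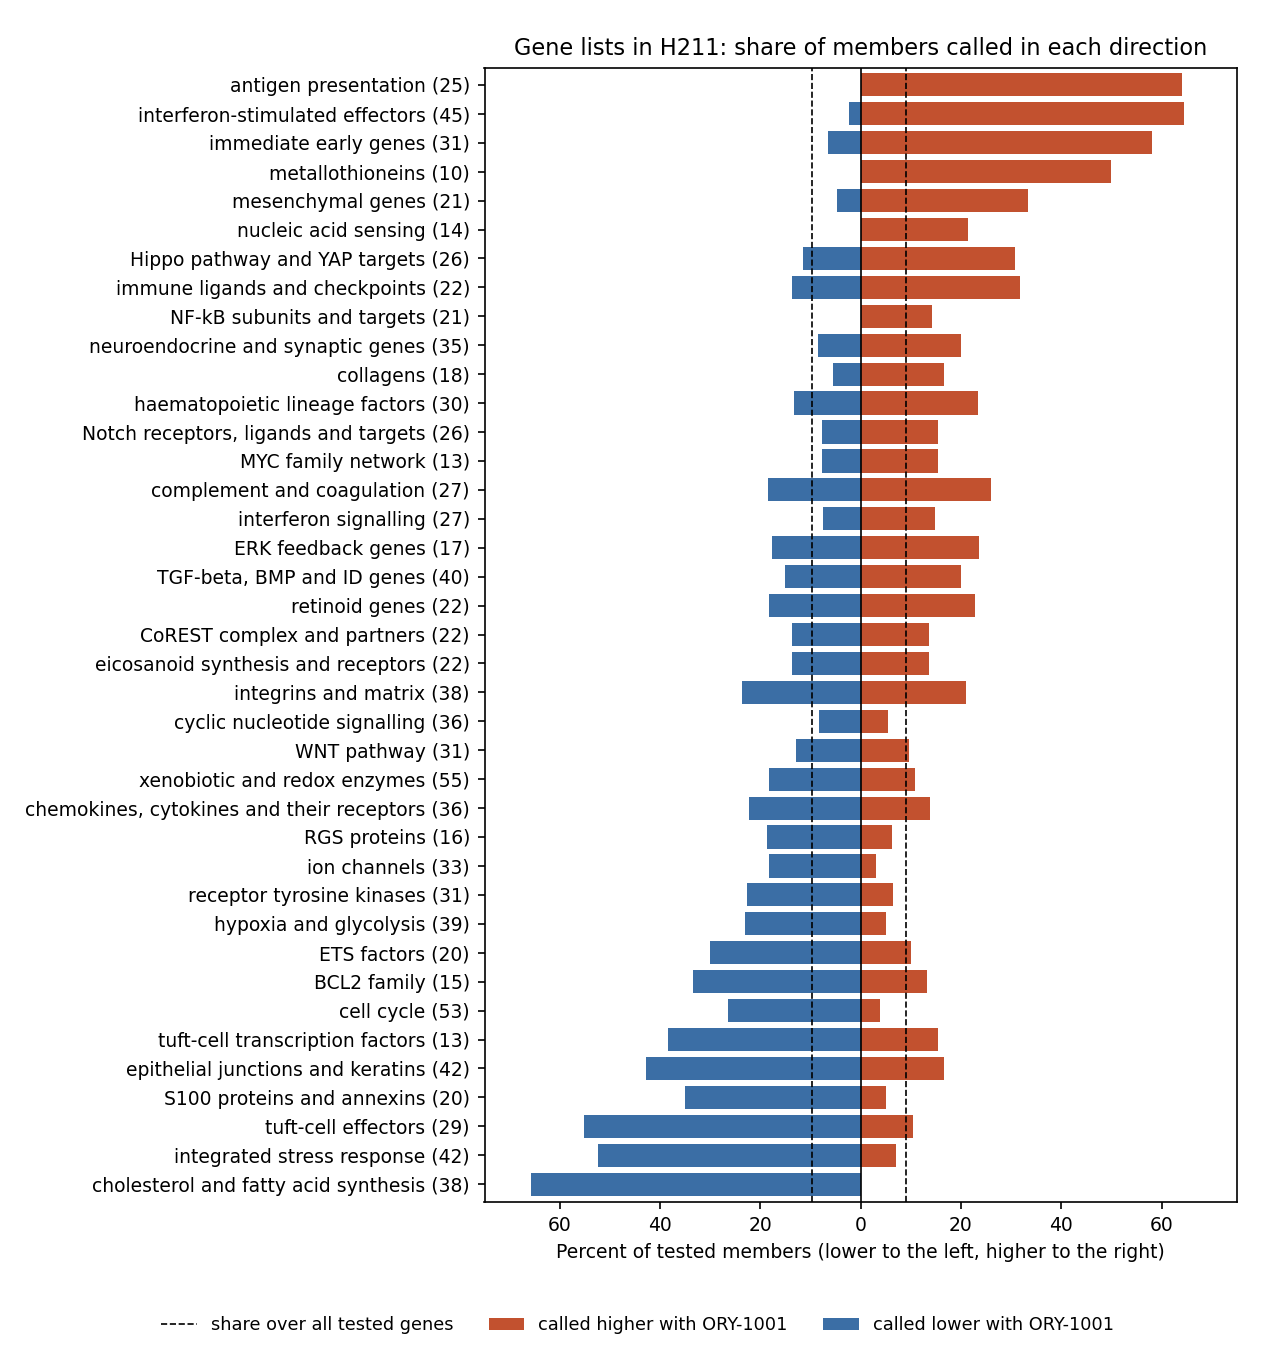
Percent of the tested members of each gene list called higher (right, orange) and lower (left, blue) with ORY-1001 in H211, with the number tested in brackets and dashed lines at the shares over all tested genes, 8.95% higher and 9.61% lower. Interferon-stimulated effectors, with 29 of 45 higher, and cholesterol and fatty acid synthesis, with 25 of 38 lower, are called mostly in opposite directions.

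Symbol families, grouped by a shared stem with at least 10 tested members, differed in how often they were called. The highest share was in PSMB, proteasome beta subunits, with 7 of 11 higher, the antisense PSMB8-AS1 among them, followed by ANXA symbols with 2 higher and 4 lower of 11 and by HOXA with 0 higher and 5 lower of 10, 1 of them the antisense HOXA-AS2. Strand is not given for the counting, so reads of a gene and its antisense partner may not be separable. HOXA5 and HOXA3, homeobox factors of the body axis, fell from 5.04 ± 1.32 to 1.9 ± 0.319 and from 10.8 ± 1.41 to 5.28 ± 0.993. Tetraspanins had 5 higher and 4 lower of 19, with TSPAN4 up 1.83-fold and TSPAN6 1.33-fold, and TNF receptors 2 higher and 3 lower of 11, with TNFRSF18 down 2.86-fold. Semaphorins, guidance molecules, had 3 higher and 4 lower of 16, and both SEMA3C and SEMA3D rose, 1.6-fold and 2.01-fold. Mitochondrial ribosomal MRPL genes were higher in 17 of 50 and lower in 0, and RPL genes higher in 22 of 85 and lower in 0, with the rest not called. The SLC transporters, a larger family, were called both ways, 15 higher and 42 lower of 237. At the other end 8 families had no called member, among them the ACTR and CHMP genes of actin-related and ESCRT proteins, the FBXL F-box genes and 20 SNORA small nucleolar RNAs. The median log2 fold change of the SNORA genes was still 0.82, so the lack of calls does not mean unchanged levels. These stems group symbols, not functions, and some, such as NBPF, hold near-identical copies.

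The response of H211 differed from that of H82 in 4956 of 15456 genes (32.1%) when the difference itself was tested. In H82 6643 genes were called (43%), 19.1% of all tested genes higher and 23.9% lower. White-cell sums were higher in every treated H82 library than in every H82 control, and their part in these counts was not tested. Of the genes called in both lines, 499 were higher in both, 551 lower in both, 241 higher in H211 and lower in H82, and 192 the reverse. EGR1 and JUN were among the 6 largest differences with the higher effect in H211, with log2 fold changes of 4.68 and 2.82 in H211 and -0.27 and -0.72 in H82 (adjusted p = 2.86e-06 and 6.37e-10 for the difference). In H82, EGR1 stood at 0.166, 1.24 and 1.3 in the controls and 1.04, 0.22 and 0.384 with the drug, near the floor. APOE, apolipoprotein E, rose in H211 from 2.19 ± 0.233 to 7.43 ± 0.996 and fell in H82 (log2 fold change -2.20). On the other side DDIT4, an mTORC1 inhibitor, fell in H211 from 18.7 ± 1.01 to 11.6 ± 0.992 and rose in H82 (2.80), and the circadian repressors BHLHE40 and BHLHE41 fell in H211 (-0.84 and -1.52) and rose in H82 (2.40 and 1.40). Their calls in H211 ended without the 3 libraries that differ in blood transcripts (log2 fold change -0.82 and -1.07, adjusted p = 0.0526 and 0.0772). Immediate early genes differed in 20 of 31, 18 with the higher effect in H211, and cholesterol and fatty acid genes in 32 of 38, 29 with the lower effect in H211. Stress response genes fell in 35 of 42 in H82, with a median of -0.73, and 29 of the 30 that differed had the higher effect in H211.

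**Figure D5:**
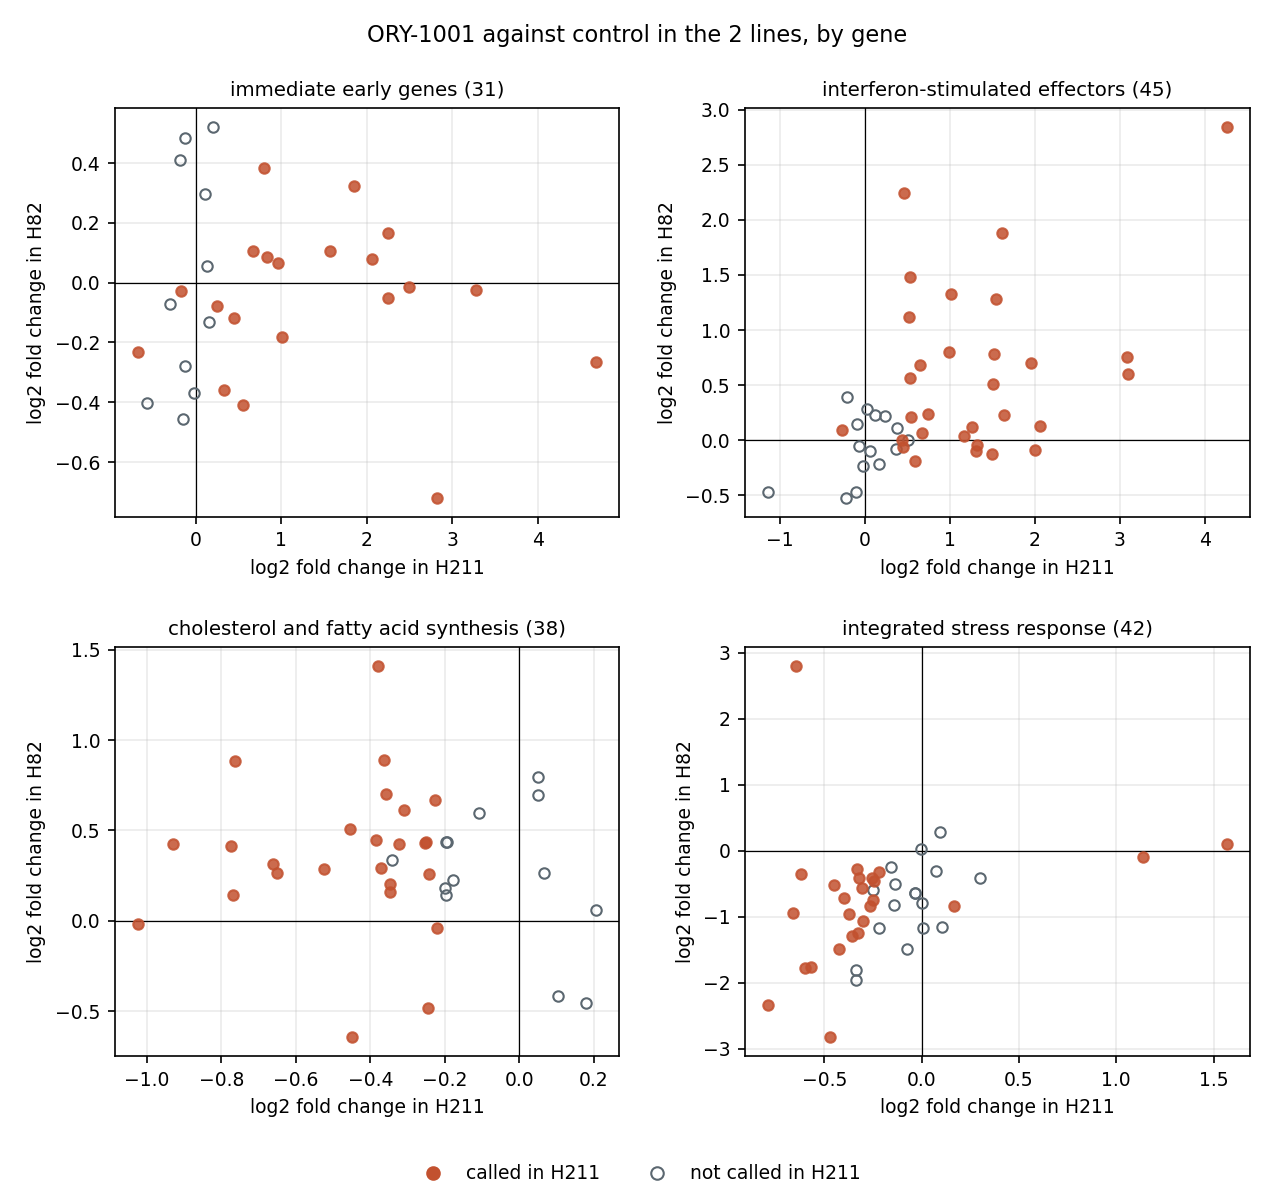
Log2 fold change with ORY-1001 in H211 (x axis) and H82 (y axis) for the tested members of 4 gene lists, 1 point per gene, filled where called in H211 and open where not. Cholesterol and fatty acid genes lie mostly at the upper left, with medians of -0.32 in H211 and 0.32 in H82, while stress response genes lie mostly below 0 in both.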

How the data were processed

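Polyadenylated RNA was enriched with oligo(dT), made into libraries with NEBNext Ultra II and read paired-end on a HiSeq, per the labels' protocols. The submitters' processing notes name hg38 and, among the tools, sleuth 0.30.0, Salmon 1.1.0, STAR 2.5.2b, Subread 1.5.2 (featureCounts) and DESeq2, besides Trimmomatic 0.36; the sources used here do not give which of them made these values, or in what order. Values as deposited are a signal per gene, TPM by the table's name; that the authors rescaled them between libraries is inferred from the column sums, 967415 to 1111988 over the 12 libraries. They hold no read depth, so no count test was run and precision rests on the replicates.

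Genes at 1 or more in at least 3 libraries (15456 of 56508 symbols) were fitted with limma 3.58.1 in R 4.3.3 on log2(value + 1), with 4 group means over the 12 libraries, a variance trend and Benjamini-Hochberg adjustment. The fit was checked on simulated data. Contrasts were ORY-1001 against control in each line and their difference. Alternatives were other pseudocounts, filters, scalings, weights and sets of libraries. Promoters came from the RefSeq table for GRCh38.p14, and gene positions from GENCODE 29.

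Named genes were the 15 largest called rises and falls (no overlap, the higher group's mean at 5 or more, outside antigen presentation and other-cell marker lists), the 6 largest level changes each way, up to 4 members per list by smallest p, the 6 largest differences between lines each way, up to 2 members of the families most and least often called, blood-cell markers at 5 or more in an H211 library, 5 markers, KDM1A and the tuft-cell factors. Some named genes are not reported here. Members and lists were chosen with earlier results of these data known.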

Additional observations from a re-analysis of the deposited data

Results flagged for a closer look

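For 12 genes the response to ORY-1001 differed between the lines when the difference was tested in the limma fit, and all were chosen as the 6 largest differences each way. The difference of log2 fold changes, H211 minus H82, was 4.947 for EGR1 and 3.539 for JUN, which rose in H211. It was 3.596 for APOE, which rose in H211 and fell in H82. It was 4.133 for NSG1, a neuronal endosome protein whose level stayed between 3.12 and 4.92 in H211 and fell in H82. The values of 4.596 for SNORD15B, a small nucleolar RNA, and 4.312 for SEPT14P2, a pseudogene, each include a single H211 library, ORY-1001 replicate 2, in which they were at 23.6 and 5.43 and listed at 0 in the other 5; neither was called in H211.

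The difference was -3.448 for DDIT4, -3.239 for BHLHE40, -2.917 for BHLHE41 and -3.546 for MIR210HG, the host transcript of a hypoxia-linked microRNA; all 4 fell in H211 and rose in H82. It was -3.327 for CXCR4, a chemokine receptor, which rose in H82 and was not called in H211, though it was called lower there in 6 of the 25 other settings. It was -3.14 for SSX2, a cancer-testis gene with near-identical copies, which was listed at 0 in 5 of 6 H211 libraries and at 1.38 in control replicate 1. Without the 3 H211 libraries that differ in blood-cell transcripts, the differences for SNORD15B (5.37, adjusted p = 0.0595) and SSX2 (-2.72, adjusted p = 0.129) were not called, and that for SNORD15B was not called either with no filter on low values (adjusted p = 0.0552).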

How the results depend on the processing

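Of 200 named called genes, 137 kept direction and call in all 25 other settings run, and 0 reversed in any. A pseudocount of 0.1 gave 254 genes at least 2-fold higher, 159 lower and 9 epithelial genes lower; a pseudocount of 5 gave 63 and 22; keeping genes at 5 or more in 3 libraries gave 59 at least 2-fold lower. Without the 2 H211 libraries high in LYZ, 1547 genes were called, 803 higher and 744 lower, and 11 epithelial genes were lower. Without the 3 that differ in blood-cell transcripts, a setting chosen after seeing the data, 774 were called, 420 higher and 354 lower, with 7 tuft-cell effectors, 3 epithelial, 11 stress response and 16 cholesterol and fatty acid genes lower. These 2 settings hold fewer samples. Leaving out 1 library at a time gave 1997 to 3031 called genes (978 to 1513 higher, 1019 to 1518 lower), 137 to 155 at least 2-fold higher and 88 to 100 lower, and 4379 to 4655 for the difference between lines. The same gave 12 to 17 tuft-cell effectors, 12 to 20 epithelial, 19 to 24 stress response and 22 to 25 cholesterol and fatty acid genes lower, and 18 immediate early and 29 to 30 interferon-stimulated genes higher. With the replicate number as a block 2497 genes were called, 1192 higher and 1305 lower, and 4701 for the difference. Same-numbered H211 libraries did not deviate together across genes (r = -0.0805, -0.0189 and -0.00874). That gave no sign of pairing by number, but such a check cannot exclude it. H211 fitted alone called 2286. Totals without mitochondrial genes gave 961 higher and 2016 lower. Calls lost most often, in 6 to 16 settings, included RPL27, SOX9, TBK1, RGS5, SPARC, MT1G, SNAI1 and COL4A1. Calls that ended at a pseudocount of 0.1 included AKR1C3, BIK, CALCA, EPHA1, HMX2, KCNQ1 and MT1E (adjusted p = 0.052 to 0.291). Depth is unknown, so low levels have no counting interval.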
